A study of Mus musculus with 6 samples.

Results

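The 8 genes described here encode the core of polyamine synthesis and breakdown: Odc1, Amd1, Srm, Sms, Sat1, Paox, Smox and Azin1. They were taken by gene symbol from the 52459 genes counted in 6 mouse livers, and all 8 were among the 17032 genes with enough counts to be tested. The 7 other members entered by function, in a set chosen with earlier results of these data known. Paox was chosen by its higher level in sgPrdx2 livers, so that its values in this contrast are a description without a test. All mice were male C57BL6J animals of the Alb-Cre/Cas9 F1 generation, in which the albumin promoter drives Cre and thereby Cas9 in hepatocytes. At 4 to 5 weeks of age they received by intravenous injection an AAV8 vector with a U6-driven guide RNA, either a control guide (sgCtrl, mice 5.1, 7.1 and 7.2) or a guide against Prdx2 (sgPrdx2, mice 1.1, 1.3 and 3.2). Both groups were then given diethylnitrosamine (DEN), a chemical that causes liver tumours, at 100 mg/kg and 3 weeks after the vector, and from 1 week after that a choline-deficient high-fat diet (CDAHFD) for 6 months. The livers were taken at 8 months of age, without an untreated or chow-fed group among the libraries used here. Prdx2 encodes peroxiredoxin 2, an enzyme that removes hydrogen peroxide, and the comparison asks which transcripts differ when its gene is targeted in hepatocytes while other liver cells, and hepatocytes that the vector did not reach, keep it.

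Polyamines are small positively charged molecules that bind nucleic acids and are needed for cell growth, and proliferating liver makes more of them. Ornithine decarboxylase (Odc1) makes putrescine, S-adenosylmethionine decarboxylase (Amd1) supplies the aminopropyl donor, and spermidine synthase (Srm) and spermine synthase (Sms) lengthen the chain. In breakdown, spermidine/spermine acetyltransferase (Sat1) tags the polyamine, the peroxisomal polyamine oxidase (Paox) cleaves the acetylated form, and spermine oxidase (Smox) acts on spermine directly. Both oxidases release hydrogen peroxide, and antizyme inhibitor (Azin1) frees ornithine decarboxylase from the antizymes that lead it to degradation.

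Total counts per liver ranged from 37462102 to 56865293, at which 3 counts stand for 0.0555 to 0.0921 CPM (counts scaled to library size, normalized by TMM), for counting error only. Prdx2 itself was at 109, 117 and 132 CPM in sgCtrl and at 99, 112 and 149 CPM in sgPrdx2 livers (log2 fold change 0.01, SE 0.18, edgeR quasi-likelihood test, adjusted p = 0.983). An edited gene can still be transcribed, so this level does not check the labels. Of all genes tested, 567 (3.33%) passed an adjusted p of 0.05, 305 higher (1.79%) and 262 lower (1.54%) in sgPrdx2 livers, which makes 53.8% of the calls higher. Scaled to 6 housekeeping genes instead (Atp5b, Bag6, Cox8a, Hint1, Hnrnpa2b1 and Ndufa2), the log2 fold change had a median of -0.38 in place of -0.02 over all genes tested, and 70 genes were called higher and 919 lower, or 7.08% higher. With TMM, 5 of these 6 genes were themselves above 0 (median log2 fold change 0.43, none called). On the TMM scale their summed level was higher in every sgPrdx2 liver (2419 to 2977 CPM) than in any control (1896 to 2180 CPM). The TMM factors themselves split by group, with 1.12 to 1.17 for the controls against 0.805 to 0.951 for sgPrdx2. Under their own scaling the 6 genes had a median log2 fold change of 0.04. Whether they look level therefore depends on the scaling chosen, and their levels cannot decide which scaling is right. The libraries are of whole liver, and cell type markers moved with the groups. All 14 hepatocyte markers were above 0 in log2 fold change (median 0.89, 6 called), with a summed level of 84083 to 92204 CPM in sgCtrl and 145512 to 191935 CPM in sgPrdx2 livers. All 11 macrophage markers (median -0.46, 1 called lower), 8 of 10 stellate cell and fibroblast markers (median -0.57, none called), 5 of 6 endothelial markers (median -0.52, 1 called lower) and 6 of 6 cholangiocyte markers (median -0.41, none called) were below 0. Their summed levels in sgCtrl against sgPrdx2 livers were 4112 to 4820 and 2981 to 4004 CPM for macrophages, 2132 to 2479 and 1585 to 1618 CPM for stellate cells and fibroblasts, 208 to 244 and 148 to 231 CPM for endothelium, and 1630 to 1858 and 1217 to 1393 CPM for cholangiocytes. The 6 proliferation markers were also below 0 (median -0.55, none called), with 90.3 to 135 CPM in sgCtrl and 72.3 to 86.5 CPM in sgPrdx2 livers. Lymphocyte markers had 7 of 9 below 0 (median -0.19, 1 called lower, 30.9 to 42.5 against 30.6 to 36.1 CPM) and neutrophil markers 3 of 4 (median -0.14, none called, 21.8 to 29.3 against 19.4 to 23.4 CPM). No marker was at 0 in every liver, and Ly6g, a neutrophil marker, had too few counts to be tested. In such bulk samples, fewer cells of a type and less RNA per cell cannot be told apart, and the part of cell composition in the results on polyamine genes was not tested.

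The 2 oxidases differed in opposite directions. Paox had 11.0, 12.4 and 12.2 CPM in sgCtrl livers and 21.6, 17.4 and 17.6 CPM in sgPrdx2 livers. Every sgPrdx2 liver was above every sgCtrl liver, and liver 1.1 was the highest. The group means were 11.9 CPM ± 0.792 and 18.9 CPM ± 2.39 (SD, n = 3 each), a ratio of 1.59, and the fitted log2 fold change was 0.67 with an SE of 0.14. Smox, the oxidase of spermine, stood at 15.8, 15.0 and 17.5 CPM in sgCtrl livers and at 8.20, 9.34 and 9.40 CPM in sgPrdx2 livers. All 3 sgPrdx2 livers lay below all 3 controls, with means of 8.98 CPM ± 0.674 against 16.1 CPM ± 1.26 (SD, n = 3 each). Smox fell by 0.84 on the log2 scale (SE 0.13, 95% interval -1.15 to -0.53), with an adjusted p = 0.0358 in edgeR's quasi-likelihood test. It was the 1 called gene of the 7 members other than Paox, beside 3.33% of all genes.

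The level of Smox relative to Paox was lower in every sgPrdx2 liver than in any control. Per kilobase of exon length, the level of Smox was 1.81, 1.52 and 1.80 times that of Paox in sgCtrl livers, and 0.478, 0.678 and 0.672 times in sgPrdx2 livers. Which of the pair was the higher in sgPrdx2 livers depended on the length used. Per kilobase of the principal transcript, Smox was at 2.95, 2.48 and 2.93 times Paox in sgCtrl livers and at 0.778, 1.1 and 1.09 times in sgPrdx2 livers, so that it was under Paox in liver 1.1 only. This ratio contains the Paox values for which the gene was noticed and is a description. It uses no library scaling, since both counts come from the same liver. It was not adjusted for sequence shared with other genes, which is 28.9% of the 50-base stretches for Paox and 0% for Smox. Smox's log2 fold change lay between -1.21 and -0.78 over 13 other settings, and its adjusted p rose to between 0.0785 and 0.144 when liver sgCtrl 5.1, sgCtrl 7.2, sgPrdx2 1.1 or sgPrdx2 1.3 was left out, where no gene at all passed (3114 to 3993 genes at an unadjusted p under 0.05, edgeR). Paox kept a log2 fold change between 0.31 and 0.74 over these settings, with 0.31 under scaling to housekeeping genes.

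**Figure D1:**
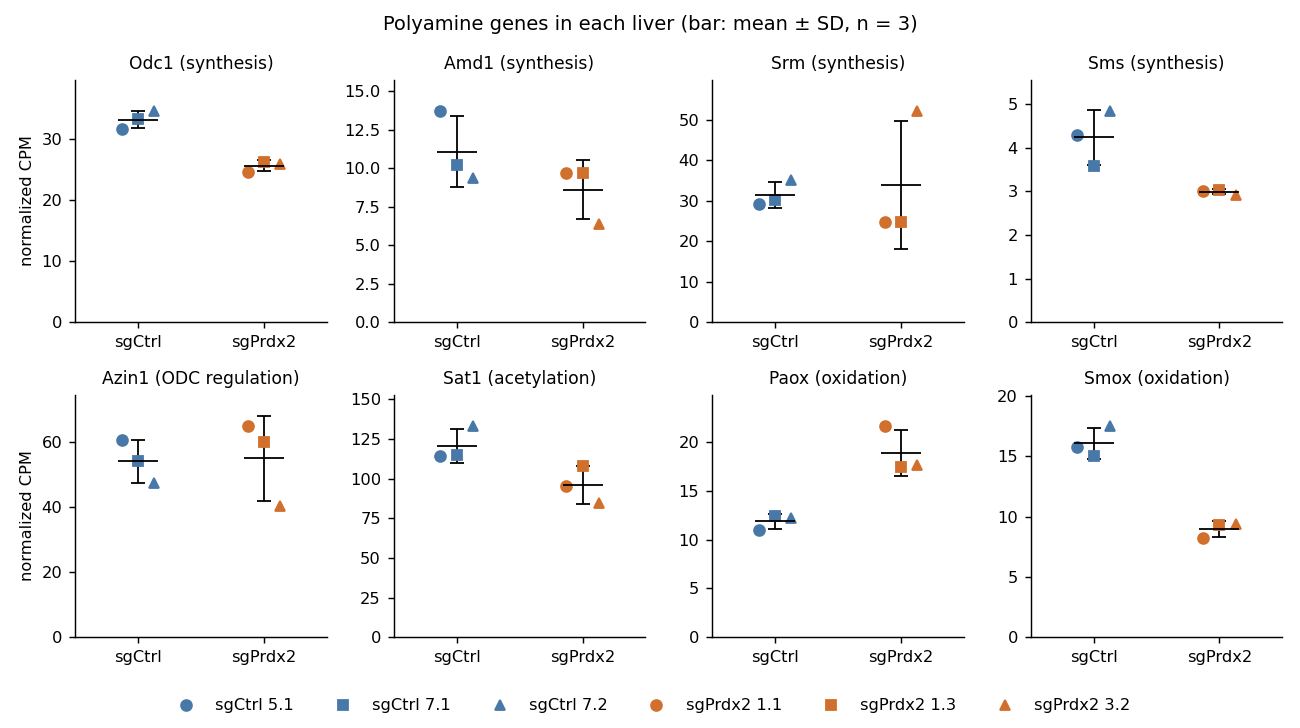
Normalized CPM (y axis, linear from 0) of the 8 polyamine genes in each liver, by group; symbols mark the mouse, and the bar gives the mean ± SD of 3 livers. Paox was higher in all 3 sgPrdx2 livers, while Odc1, Sms, Sat1 and Smox were lower in all 3, and Srm in liver 3.2 (52.1 CPM) lies apart.

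The stretches before the start sites of both oxidases are shown, because these are the members with the largest differences and they differ in direction. They are the 250 bases upstream of the RefSeq start in GRCm38.p6, read 5′ to 3′ on the plus strand, with capitals for matches on either strand to the GC box GGGCGG and to TGACNNNGC, the core of the antioxidant response element. Paox is at chr7:140125407-140125656 (the more upstream of 2 RefSeq starts) and Smox at chr2:131491612-131491861. The GENCODE M21 annotation has both genes begin before these windows, at 140115799 for Paox and 131491496 for Smox.
Paox: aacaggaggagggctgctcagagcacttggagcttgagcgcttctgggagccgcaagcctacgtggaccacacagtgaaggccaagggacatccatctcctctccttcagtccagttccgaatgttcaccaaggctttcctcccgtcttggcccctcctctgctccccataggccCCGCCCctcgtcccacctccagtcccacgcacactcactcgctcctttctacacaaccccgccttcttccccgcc
Smox: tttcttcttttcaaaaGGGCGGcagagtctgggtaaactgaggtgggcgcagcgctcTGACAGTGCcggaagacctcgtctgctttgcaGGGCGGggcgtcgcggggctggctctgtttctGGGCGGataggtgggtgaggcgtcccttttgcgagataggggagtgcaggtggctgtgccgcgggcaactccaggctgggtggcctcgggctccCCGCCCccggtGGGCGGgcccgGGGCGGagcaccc
The Paox window holds 1 GC box match, on the minus strand 75 bases before the start, and no match to the antioxidant response element core. The Smox window holds 6 GC box matches, 5 of them on the plus strand, and 1 antioxidant response element core 193 bases before the start. Neither holds the TATA box letters TATAAA, and no matches overlap. Among 32851 RefSeq promoters of this length, 32.7% hold a GC box match, 10.2% the antioxidant response element core and 12.4% the TATA box letters. A match in letters is not a bound site, and no binding was measured.

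The Paox row has 2 features that limit its reading. Its exons (ENSMUSG00000025464.15, chromosome 7, 140115799 to 140137224, plus strand, GENCODE M21 on GRCm38) overlap over 142 bases those of Echs1 on the other strand, which encodes a mitochondrial enzyme of fatty acid oxidation. Echs1 had 6936 to 13576 counts against 480 to 949 for Paox, and it was at 158, 196 and 173 CPM in sgCtrl and 292, 251 and 262 CPM in sgPrdx2 livers (log2 fold change 0.61, SE 0.14, edgeR adjusted p = 0.0599). Whether counting used strand is not given in the sources used here, and without strand the reads of that stretch cannot be told apart. Of the 50-base stretches in the principal Paox transcript, 28.9% also occur in other annotated genes, mainly Gm19680, whose counts came to 7.8 to 12.5% of those of Paox. Gm19680 had a log2 fold change of 0.19 (SE 0.21, edgeR adjusted p = 0.603). The Smox transcript (ENSMUSG00000027333.18, chromosome 2, 131491496 to 131525922, plus strand) shared 0 such stretches with other genes and overlapped no exon of another gene.

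Of the synthesis enzymes, none passed the test. Those of the first and last steps had all sgPrdx2 livers below all controls after TMM, as did 17.5% of all genes tested. Odc1, the first enzyme, was at 31.7, 33.2 and 34.5 CPM in sgCtrl livers and at 24.6, 26.3 and 25.9 CPM in sgPrdx2 livers. The groups did not overlap, and the spread within each was small (coefficient of variation 4.29% and 3.53%). Its log2 fold change was -0.37 (SE 0.11, 95% interval -0.62 to -0.13, edgeR adjusted p = 0.0895). Odc1 passed under 3 of 13 other settings. Its adjusted p was 0.0375 under scaling to housekeeping genes (edgeR), 0.0423 in DESeq2, and 0.0462 after removal of a trend with exon length and GC content (edgeR). These settings called more genes in all, 989, 2118 and 1059 in that order, against 567 in the main fit. The log2 fold change of Odc1 lay between -0.74 and -0.34 over the 13. Of its 50-base stretches, 42.2% recur in annotated copies, of which the ones sharing most, Gm7993 and Gm17709, had at most 8 and 26 counts in a liver.

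Sms, the spermine synthase on chromosome X, had 4.29, 3.58 and 4.83 CPM in sgCtrl and 3.01, 3.03 and 2.92 CPM in sgPrdx2 livers, from 95 to 254 counts. All sgPrdx2 livers were below all controls, and they lay closer to each other than the controls did. After removal of the trend with exon length and GC content the groups overlapped. Sms was then at 4.15, 3.32 and 4.76 CPM in sgCtrl and at 2.97, 2.95 and 3.41 CPM in sgPrdx2 livers. With TMM alone the log2 fold change was -0.50 (SE 0.18, 95% interval -0.92 to -0.09, edgeR adjusted p = 0.142). Sms-ps, an annotated copy, holds 28.7% of the 50-base stretches of Sms and had counts equal to 15.2 to 31.1% of those of Sms. Sms-ps had 53, 50 and 69 counts in sgCtrl and 20, 29 and 22 counts in sgPrdx2 livers (log2 fold change -1.13, SE 0.26, edgeR adjusted p = 0.057), so the division of reads between gene and copy is uncertain.

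Amd1, which makes decarboxylated S-adenosylmethionine, had 13.7, 10.2 and 9.36 CPM in sgCtrl and 9.71, 9.73 and 6.39 CPM in sgPrdx2 livers. The groups overlapped, since livers 1.1 and 1.3 lay above sgCtrl liver 7.2. Its log2 fold change was -0.36 (SE 0.22, 95% interval -0.87 to 0.14, edgeR adjusted p = 0.34). Of its stretches, 87.6% recur in other annotated genes, mainly the near-identical Amd2, on which no liver had more than 3 counts. Reads of shared stretches cannot be told apart by sequence, so this low count does not settle the division of reads between Amd1 and Amd2.

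Srm, the spermidine synthase, had 29.2, 30.2 and 35.2 CPM in sgCtrl livers and 24.8, 24.9 and 52.1 CPM in sgPrdx2 livers. Livers 1.1 and 1.3 were below every control and liver 3.2 above every other liver, so that the coefficient of variation was 46.3% in sgPrdx2 against 10.1% in sgCtrl. The fitted log2 fold change was 0.10 (SE 0.29, 95% interval -0.56 to 0.76, edgeR adjusted p = 0.843), and without liver 3.2 it was -0.33 (adjusted p = 0.124). Liver 3.2 stood apart by transcript length: with genes divided into 5 equal classes of exon length, its shortest class had a median log2 deviation of 0.27 from the mean of all livers and its longest of -0.30, while the other 5 livers lay between -0.13 and 0.15 in these classes. Srm is in the shortest class. After a trend with exon length and GC content was removed from each library, Srm was at 31.2, 34.7 and 36.2 CPM in sgCtrl and at 25.6, 26.0 and 37.4 CPM in sgPrdx2 livers, with a log2 fold change of -0.20 (SE 0.16, edgeR adjusted p = 0.461). Under scaling to housekeeping genes the log2 fold change of Srm was -0.32 (edgeR adjusted p = 0.284), or 0.06 relative to the median of all genes.

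**Figure D2:**
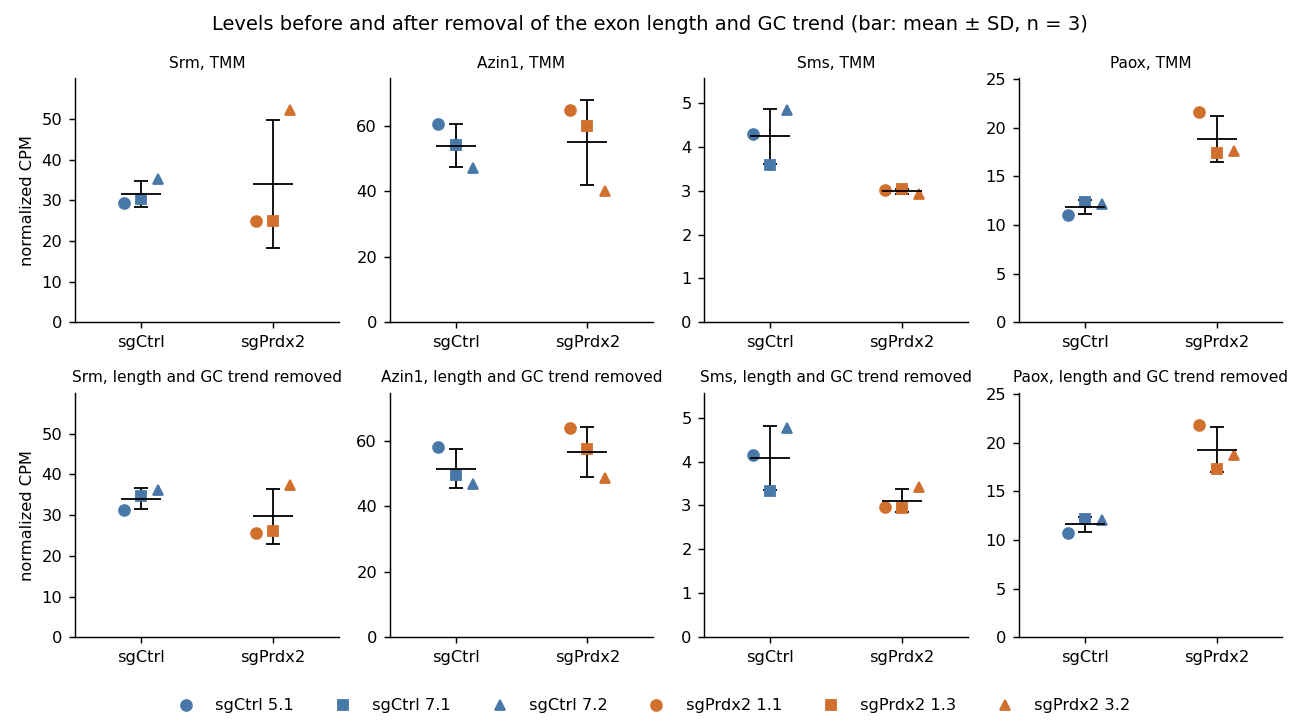
Normalized CPM (y axis, linear from 0) of Srm, Azin1, Sms and Paox in each liver after TMM (upper row) and after a trend with exon length and GC content was also removed (lower row), with mean ± SD of 3 livers. Srm in liver 3.2 goes from 52.1 to 37.4 CPM, the groups of Sms come to overlap, and those of Paox stay apart.

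Sat1, the acetyltransferase that starts the breakdown route through Paox, had 114, 115 and 133 CPM in sgCtrl livers and 95.3, 108 and 84.3 CPM in sgPrdx2 livers. Its groups did not overlap, with the log2 fold change at -0.33 (SE 0.14, 95% interval -0.67 to 0.00, edgeR adjusted p = 0.206). In each sgPrdx2 liver, Sat1 was at a lower and Paox at a higher level than in any control. Sat1 did not pass and Paox was chosen by its rise, so this pair of directions is a description only. Azin1, which opposes the antizymes, had 60.6, 54.1 and 47.3 CPM in sgCtrl and 64.8, 60.0 and 40.2 CPM in sgPrdx2 livers. These overlapped fully, and its log2 fold change of 0.03 (SE 0.20, 95% interval -0.43 to 0.48, edgeR adjusted p = 0.94) turned to -0.31 under scaling to housekeeping genes. Relative to the median of all genes under that scaling, Azin1 was at 0.07.

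Of the 7 members other than Paox, 4 (Odc1, Sms, Sat1 and Smox) had all sgPrdx2 livers below all sgCtrl livers and 3 (Amd1, Srm and Azin1) overlapped. The groups of Sms overlapped as well once the length and GC trend was removed. Groups failed to overlap for 34.2% of all genes tested, and 17.5% were below in this way. The median log2 fold change of the 8 members was -0.35, against -0.02 for all genes, and -0.69 against -0.38 under scaling to housekeeping genes. Taken relative to the median of all genes, 3 of the 8 members were above it under both scalings, and 2 were above it after the length and GC trend was removed.

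Levels were compared between genes per kilobase of annotated exon length. The lengths were not reduced for 50-base stretches shared with other genes. Such stretches made up 87.6% of those of Amd1, 42.2% for Odc1, 28.9% for Paox, 28.7% for Sms and 0% for Smox. Their effect on the order was not tested. In sgCtrl livers, Sat1 came first with 43.5 CPM per kb ± 3.74, followed by Srm (19.7 ± 1.98), Odc1 (9.74 ± 0.418), Azin1 (8.63 ± 1.06), Smox (4.13 ± 0.323), Amd1 (3.14 ± 0.653), Paox (2.42 ± 0.161) and Sms (0.705 ± 0.104), each as mean and SD of 3 livers. The ranges of Odc1 and Azin1 overlapped, as did those of Smox and Amd1, and the other neighbours were apart in all 3 livers. In sgPrdx2 livers, Paox (3.85 CPM per kb ± 0.486) took the fifth place and Smox (2.31 ± 0.173) the seventh, where the ranges of Smox and Amd1 (2.43 ± 0.542) overlapped. Paox lay above both in each of these livers. With the length of the principal transcript in place of all exons, Paox again went from the seventh place in sgCtrl to the fifth in sgPrdx2 livers, while Smox went from the fifth to the sixth place (7.08 to 3.96 CPM per kb), with 4.05 CPM per kb for Paox. By that length the ranges of Smox (3.61 to 4.14) and Paox (3.73 to 4.64) overlapped in sgPrdx2 livers, so these neighbours did not differ beyond their spread.

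Lists of 49 genes in all, chosen with earlier results of these data known, described the genes around this core. Of the 49 genes, 45 could be tested. Of these, 5 were called higher and 3 lower, beside 3.33% of all genes called, and 28 had groups that did not overlap, beside 34.2% of all genes. Their median log2 fold change was 0.41, with 30 above and 15 below 0. Under scaling to housekeeping genes 23 were above and 22 below 0, while 31 lay above the median of all genes under either scaling. None passed when sgCtrl 5.1, sgCtrl 7.2, sgPrdx2 1.1 or sgPrdx2 1.3 was left out, whereas 4 passed without sgCtrl 7.1 and 5 without sgPrdx2 3.2 (edgeR).

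Genes of ornithine supply and use numbered 12, all tested, with a median log2 fold change of 0.76. Called were 1 higher and 2 lower, beside 1.79% and 1.54% of all genes. Agmat, annotated as agmatinase, which turns agmatine into putrescine, was at 82.4, 120 and 113 CPM in sgCtrl and at 229, 203 and 319 CPM in sgPrdx2 livers, and it rose by 1.25 on the log2 scale (SE 0.22, edgeR adjusted p = 0.0394). Aldh18a1, which makes the precursor of proline and ornithine from glutamate, went the other way. It had 11.5, 11.1 and 15.0 CPM in sgCtrl and 5.90, 6.34 and 6.23 CPM in sgPrdx2 livers, and fell by 1.02 on the log2 scale (SE 0.16, edgeR adjusted p = 0.0358). Slc7a1, a carrier of cationic amino acids such as arginine and ornithine, fell from 8.93, 8.21 and 7.34 CPM to 3.46, 4.75 and 3.13 CPM, a ratio of means of 0.463 (95% interval of the log2 fold change -1.56 to -0.64, edgeR adjusted p = 0.0409). The other 9 genes of the list did not pass, among them Arg1, the arginase that releases ornithine (log2 fold change 0.77, edgeR adjusted p = 0.0621), and Otc, which uses ornithine in the urea cycle (1.12, adjusted p = 0.0504).

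In the methionine cycle and salvage list, which supplies S-adenosylmethionine and recovers its remnant after each aminopropyl transfer, 2 of 10 genes were called, both higher (median 0.38). Of all genes, 1.79% were called higher. Adi1, an enzyme of methionine salvage, rose by 0.62 on the log2 scale from 98.1, 113 and 99.1 CPM to 167, 147 and 162 CPM (SE 0.13, edgeR adjusted p = 0.0487). Ahcy, which hydrolyses S-adenosylhomocysteine, rose by 0.81 from 145, 135 and 190 CPM to 268, 250 and 306 CPM (SE 0.17, edgeR adjusted p = 0.0496). Mtap, which takes up the methylthioadenosine released by spermidine and spermine synthases, had 26.5 to 27.1 CPM in sgCtrl and 25.6 to 27.6 CPM in sgPrdx2 livers. Neither Adi1 nor Ahcy passed under scaling to housekeeping genes (0.25 and 0.44, edgeR adjusted p = 0.292 and 0.0906).

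Among further acetylation and aldehyde steps, 8 of 9 genes were tested and the median was 0.71. Called were 2 higher and 1 lower, beside 1.79% and 1.54% of all genes. Sat2, a relative of Sat1, had 7.49, 9.12 and 7.63 CPM in sgCtrl and 15.2, 11.6 and 16.7 CPM in sgPrdx2 livers, and rose by 0.84 on the log2 scale (SE 0.17, edgeR adjusted p = 0.048). Aldh7a1, an aldehyde dehydrogenase, rose by 1.08 from 173, 295 and 224 CPM to 526, 423 and 512 CPM (SE 0.21, edgeR adjusted p = 0.0457). Aoc1, the diamine oxidase that degrades putrescine and histamine, fell by 1.56 on the log2 scale, with 6.83, 4.16 and 4.85 CPM in sgCtrl and 1.32, 1.65 and 2.46 CPM in sgPrdx2 livers (SE 0.29, edgeR adjusted p = 0.0409). This was the largest called difference among the 45 genes. Sat2 and Aldh7a1 did not pass under scaling to housekeeping genes (0.45 and 0.70, edgeR adjusted p = 0.129 and 0.0891), whereas Aoc1 did (-1.96, adjusted p = 0.0274).

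**Figure D3:**
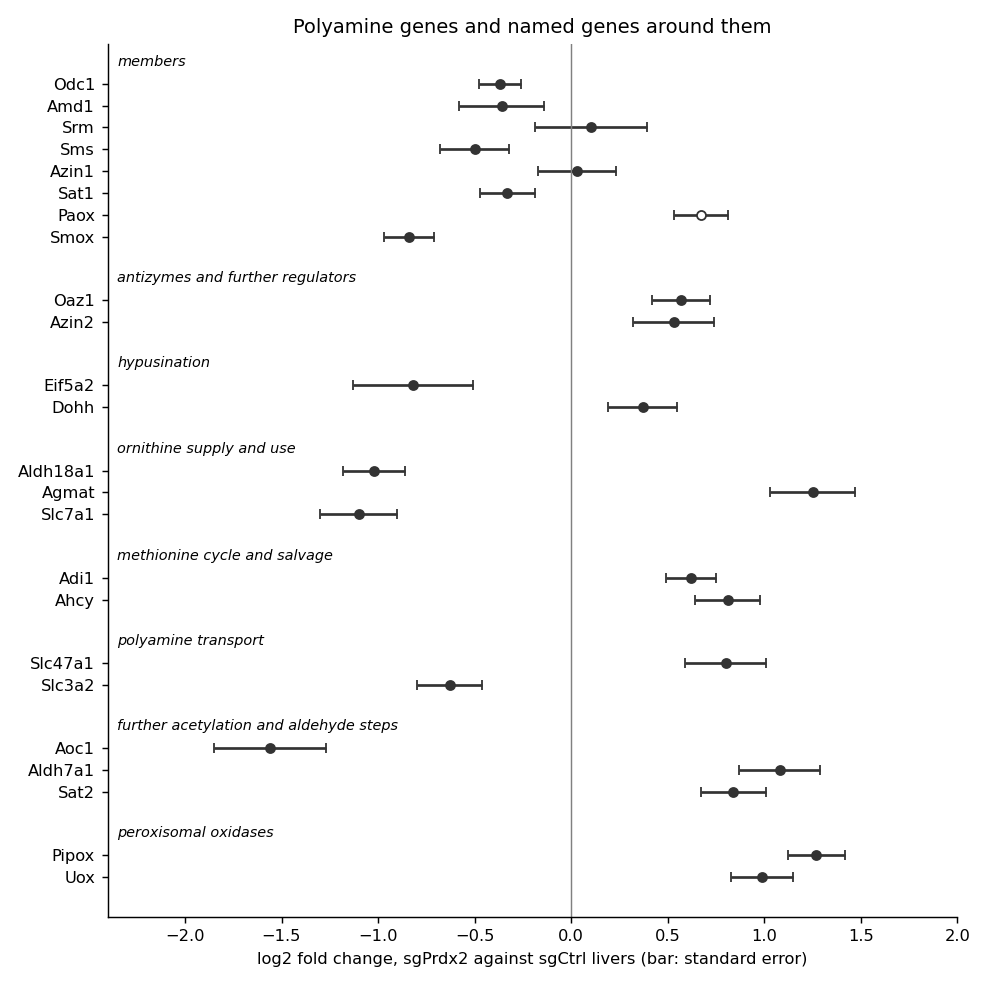
Log2 fold change (x axis) of sgPrdx2 against sgCtrl livers for the 8 polyamine genes and the genes named from each list, with bars of 1 standard error from the edgeR fit; the open symbol is Paox, which was not tested. Smox (-0.84) and Paox (0.67) lie farthest from 0 among the 8 genes, and Aoc1 (-1.56) lies lowest of all.

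No gene of the remaining lists was called. Of the antizymes and further regulators, Oaz1, the main antizyme that binds ornithine decarboxylase, had 80.5, 85.1 and 90.8 CPM in sgCtrl and 117, 111 and 151 CPM in sgPrdx2 livers. All 3 sgPrdx2 livers were above the controls, with a log2 fold change of 0.57 (SE 0.15, edgeR adjusted p = 0.0819). Oaz1 passed in DESeq2 (adjusted p = 0.0114), where 2118 genes were called in all, against 567 in edgeR. Azin2, the second antizyme inhibitor, had a log2 fold change of 0.53 (SE 0.21, edgeR adjusted p = 0.168) and Oaz2 of 0.06, so that the median of 3 was 0.53. Oaz3 was not tested. Hypusination is the modification that joins a part of spermidine to the factor eIF5A, and its 4 genes had a median of 0.21. Eif5a2 was at -0.82 (edgeR adjusted p = 0.16) and Dohh at 0.37 (adjusted p = 0.25) in TMM. Under scaling to housekeeping genes all 4 lay below 0, while 3 of them lay above the median of all genes. Of 8 tested genes of polyamine transport (median -0.12), Slc47a1, an exporter of organic cations, was at 0.80 (edgeR adjusted p = 0.0709) and Slc3a2, the heavy chain of amino acid carriers, at -0.63 (adjusted p = 0.0804).

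**Figure D4:**
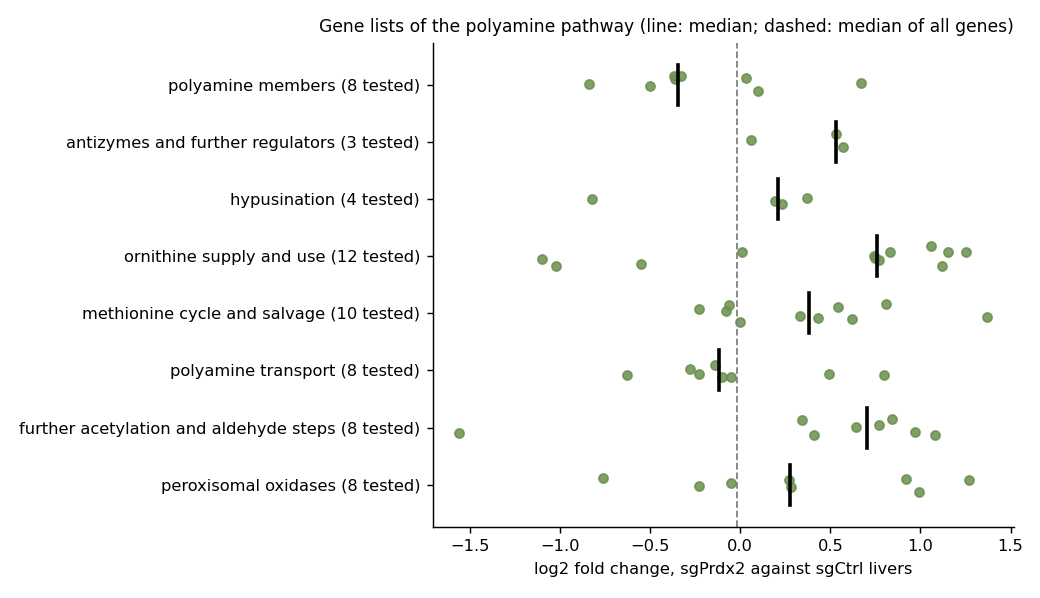
Log2 fold change (x axis) of each tested gene, by list, with the median of the list as a black line and the median of all genes (-0.02) dashed. The polyamine members have a median of -0.35, while ornithine supply and use (0.76) and further acetylation and aldehyde steps (0.71) have the highest medians, each list holding genes on both sides except the 3 antizymes and regulators.

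Because Paox works in the peroxisome, the other oxidases of that organelle were set beside it. Of 9 genes, 8 were tested, 2 were called higher and none lower, beside 1.79% and 1.54% of all genes. Their median log2 fold change of 0.27 became -0.10 under scaling to housekeeping genes, and 5 lay above the median of all genes under either scaling. Pipox, which oxidizes pipecolic acid and sarcosine, rose by 1.27 on the log2 scale, from 81.1, 92.7 and 94.7 CPM to 238, 187 and 221 CPM (SE 0.15, edgeR adjusted p = 0.0313). Uox, the urate oxidase, rose by 0.99 from 639, 832 and 847 CPM to 1488, 1589 and 1522 CPM (SE 0.16, edgeR adjusted p = 0.0373), but did not pass under scaling to housekeeping genes (0.62, adjusted p = 0.0695). Neither gene passed when sgCtrl 5.1, sgCtrl 7.2, sgPrdx2 1.1 or sgPrdx2 1.3 was left out. Log2 fold changes in the list ran from -0.76 to 1.27, but the lowest, Hao2, rested on 1 liver (SE 0.86, edgeR adjusted p = 0.609). Hao2 had 2.26, 2.07 and 22.7 CPM in sgCtrl and 5.74, 6.77 and 3.47 CPM in sgPrdx2 livers. The next lowest was Acox2 (-0.23, edgeR adjusted p = 0.531).

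Among 9266 genes averaging 10 CPM or more, the 5 with the profile most like that of Paox over the 6 livers included Phykpl (Pearson r = 0.994 of log2 CPM), Cnn3 (0.993), Tfam (0.992) and Acad8 (0.990). Like Paox, each of these was higher in all sgPrdx2 livers and highest in liver 1.1, as with Acad8 at 38.8, 44.9 and 41.7 CPM in sgCtrl and 68.2, 61.0 and 60.6 CPM in sgPrdx2 livers. For Odc1 they were Creb3l1 (0.993), Icam1 (0.991), Ddr1 (0.991), Ier5 (0.991) and Vps37b (0.990). Icam1, an adhesion molecule of endothelial and immune cells, was at 78.2, 78.5 and 80.2 CPM in sgCtrl and 60.7, 64.5 and 63.3 CPM in sgPrdx2 livers. These are the closest of many profiles over 6 points from 2 groups, and the livers share their libraries and scaling, so the values describe likeness only.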

How the data were processed

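RNA-Seq of 6 livers, 3 sgCtrl and 3 sgPrdx2, was analysed, with groups taken from the sample labels. The authors deposited raw counts of reads per gene, without normalization. The submitters' processing notes name HISAT2, HTSeq, DESeq2 and the build GRCm38. Versions, annotation and strand setting are not given in the sources used here. A second deposited table with the authors' own comparison (mean, log2 fold change, standard error, Wald statistic and p-values per gene) was not used.

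The counts were fitted with edgeR 4.0.16 (R 4.3.3). Low genes were removed by filterByExpr (minimum count 10), leaving 17032 of 52459. After TMM normalization the groups were compared by glmQLFTest on a glmQLFit of the 6 livers, with group as the only term. A gene was called where its Benjamini-Hochberg adjusted p over all genes tested was under 0.05. Biological coefficient of variation: 0.213 in this fit. The standard error of a log2 fold change was obtained from its F statistic, and intervals use the degrees of freedom of the fit. Total counts were 37462102 to 56865293 per liver. No 2 libraries were copies of each other (chi-square per degree of freedom at least 31.9 over 15 pairs).

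Exon lengths, GC content and shared 50-base stretches come from GENCODE M21 (GRCm38), which need not be the annotation the authors used. Length and GC values were found for 16542 of the tested genes. Promoters come from RefSeq (GRCm38.p6), which gave a window for 6 of the 8 members. The fit was tested on simulated counts of 3 livers per group, with 200 of 16839 genes changed by a factor of 4. In these, edgeR recovered 178 of the 200 and made 18 other calls. DESeq2 recovered 181 and made 39 other calls.

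The members and lists were chosen with earlier results of these data known. Named genes are the 8 members, the called genes of each list (up to 4 by smallest p, otherwise the 2 with the smallest p), genes that share sequence with a member, and the 5 profiles closest to Paox and to Odc1, of which some results are not reported here. Values of Echs1, Oaz2, Arg1, Otc and Mtap had been seen when these genes were named. As alternatives, the fit was repeated with RLE or upper-quartile factors, with scaling to 6 housekeeping genes, in DESeq2 1.42.0, with either no filter or a minimum of 10 counts in each liver, at an adjusted p under 0.01, without each liver in turn, and after removal of a loess trend with exon length and GC content per library.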

Additional observations from a re-analysis of the deposited data

How the results depend on the processing

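The count of genes called was 567, and it became 989 with scaling to housekeeping genes, 2118 in DESeq2, 1128 without a filter on low counts, 1059 with the length and GC trend removed, 0 at an adjusted p under 0.01 (4241 genes at an unadjusted p under 0.05, edgeR), and 0 to 619 with one liver left out. It was 0 without sgCtrl 5.1, sgCtrl 7.2, sgPrdx2 1.1 or sgPrdx2 1.3 (3114 to 3993 genes at an unadjusted p under 0.05). Of the 7 members other than Paox, 2 were called (Odc1 and Smox) with scaling to housekeeping genes, in DESeq2 and with the trend removed, 0 at an adjusted p under 0.01, and 0 to 1 with one liver left out. Of the 45 further pathway genes, 8 were called, and 5 with scaling to housekeeping genes, 22 in DESeq2, 15 without a filter, 0 at an adjusted p under 0.01, and 0 to 5 with one liver left out (4 without sgCtrl 7.1). Of the peroxisomal oxidases, 2 were called, 1 with scaling to housekeeping genes, 3 in DESeq2 and without a filter, 0 at an adjusted p under 0.01, and 0 to 3 with one liver left out (3 without sgCtrl 7.1). The log2 fold change of Srm reversed from 0.10 to -0.32 with scaling to housekeeping genes, to -0.20 with the trend removed, and ranged from -0.33 to 0.30 with one liver left out. That of Azin1 reversed from 0.03 to -0.31 with housekeeping scaling and ranged from -0.11 to 0.22 with one liver left out (-0.06 without sgCtrl 7.2, -0.02 without sgPrdx2 1.3), and that of Dohh from 0.37 to -0.03 with housekeeping scaling, which lowers the median of all genes to -0.38. Under that scaling the log2 fold change of Paox was 0.31, or 0.69 relative to this median. Srm was at 0.06 and Azin1 at 0.07 relative to the same median. With one liver left out, fewer samples enter the fit. The cause of the other shifts was not tested. The direction of Odc1, Amd1, Sms, Sat1, Paox and Smox was the same under all 13 other settings. No paired analysis was possible because the 2 groups share no replicate number. The number before the point in the mouse names also differs between the groups, and its meaning is not given in the sources used here. Whatever it marks cannot be told apart from the guide, and mice that share it may not be independent.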
